A study of Homo sapiens with 61 samples.

Results

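The 36 genes described here encode homeobox transcription factors that mark classes of neurons, out of 58440 gene identifiers in each of the deposited count tables. They are a fixed list of symbols, matched to the tables through GENCODE 29, and all 36 were found. The list was drawn up with measured values of these data known: BARHL2 was selected on its expression in single lines of the first experiment, so comparisons between those lines are given below as a description with no test. The genes fall into BARHL factors (BARHL1, BARHL2), POU4 factors (POU4F1, POU4F2, POU4F3), other POU factors (POU3F1, POU3F2, POU3F3, POU2F2), factors of peripheral, sensory and motor neurons (ISL1, ISL2, PHOX2A, PRRX1, PRRXL1, TLX3), cut and SATB factors (CUX1, CUX2, SATB1, ONECUT1, ONECUT2, ONECUT3), LIM factors (LHX1, LHX2, LHX5, LHX9, LMX1A, LMX1B), OTX, DLX and IRX factors (OTX1, OTX2, DLX1, DLX2, IRX2, IRX5) and TALE factors (MEIS1, MEIS2, PBX3).

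Homeobox factors bind DNA through a homeodomain, and combinations of them specify which kind of neuron a progenitor becomes and then keep that identity in place. Many act with partners: LIM factors bind the bridging protein LDB1, and MEIS and PBX proteins bind DNA together with other homeodomain proteins. POU4 factors and ISL1 are best known from sensory neurons, MEIS2 and DLX2 from forebrain interneurons, OTX2 from the midbrain and forebrain, and CUX and SATB factors from cortical layers.

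The cells were neurons. They were derived from the established human pluripotent line WTC11 with doxycycline-driven NGN2, a proneural factor; the labels put the word cortical in quotation marks. On day 14 they received 5 nM vincristine, a drug that blocks microtubule assembly, or the vehicle DMSO (labelled untreated) for 16 hours. In the first experiment the lines were WT, a DLK KO, an LZK KO and a double KO of both kinases, each with 4 untreated and 4 vincristine libraries; DLK and LZK are the stress-activated kinases encoded by MAP3K12 and MAP3K13. In the second experiment neurons able to carry out CRISPR interference, which lowers transcription of a target without cutting it, received a scrambled Control gRNA, an ATF2 gRNA or a JUN gRNA by lentivirus; ATF2 and JUN are transcription factors of the stress response downstream of such kinases. Each of these groups had 5 libraries, except ATF2 gRNA with vincristine, which had 4 (replicates 2 to 5). The number of clones behind each knockout line is not given in the sources used here. Nothing in the labels says that the replicates came from separate differentiations, so the p-values below measure the spread between these libraries, which may be technical.

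Library totals were 8.41 M to 14.6 M counts in the first experiment and 38.9 M to 88.4 M counts in the second. Levels are given as CPM, the count divided by the library total in units of 1 M counts after TMM scaling. Among the targets, mean MAP3K12 was 91.0 CPM in untreated WT and 26.3 CPM in DLK KO, and mean MAP3K13 was 99.1 CPM in WT and 31.9 CPM in LZK KO. Both were low in the double KO (19.7 and 29.6 CPM). Mean ATF2 was 129 CPM with Control gRNA and 0.526 CPM with ATF2 gRNA, and mean JUN was 88.5 CPM with Control gRNA and 2.87 CPM with JUN gRNA. The targets were not changed separately. Mean untreated JUN was also lower with ATF2 gRNA, at 21.0 CPM, whereas ATF2 was at 153 CPM with JUN gRNA. Mean untreated ATF2 was 141 CPM in WT and 71.0 CPM in DLK KO. Neuronal markers such as MAP2 and SNAP25 were all detected (11 of 11 at 1 CPM or more in every group). Of 11 markers of cortical excitatory neurons, 5 or 6 reached 1 CPM in each group, and the defining markers EMX1, FEZF2, NEUROD6 and EOMES were under 1 CPM in all groups. WT vincristine replicate 4 stood apart from the other 3 libraries of its group, and results that rest on it are also given without it.

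In outline, vincristine lowered 19 of 30 tested genes in WT and 18 of 33 in Control gRNA. POU4F1, IRX2, LHX9 and LHX1 were lowered in both control lines. Over all tested genes, 14.5% fell in WT and 18.1% in Control gRNA. With ATF2 or JUN gRNA the falls of POU4F1, IRX2 and LHX9 were smaller, and LHX1 rose. The rise of LHX1 with ATF2 gRNA did not hold on leaving out a single treated library. Untreated POU4F1 was already lower with ATF2 gRNA than with Control gRNA. Its mean treated level with ATF2 gRNA was not above that with Control gRNA. The lines also differed at rest, and MEIS2 was at 2.43 CPM in untreated WT and 675 CPM in untreated LZK KO.

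To show the start regions of genes that fell in both control lines, the sequences of POU4F1, IRX2 and OTX2 are printed here: they are the 3 genes with the largest mean fall in both lines that have an entry in the RefSeq promoter table with no more than 30 bases inside the annotated gene, a choice made after the values were seen. Each is the 250 bases before the RefSeq start, in the GRCh38.p14 build, written 5′ to 3′ on the gene's strand, with capitals marking matches to the motifs searched.
POU4F1, chr13:78603553-78603802, minus strand: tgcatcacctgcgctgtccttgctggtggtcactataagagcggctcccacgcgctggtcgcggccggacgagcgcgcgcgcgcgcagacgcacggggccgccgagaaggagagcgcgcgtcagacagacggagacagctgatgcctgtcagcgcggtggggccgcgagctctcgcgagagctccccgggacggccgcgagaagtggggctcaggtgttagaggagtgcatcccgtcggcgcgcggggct
IRX2, chr5:2751678-2751927, minus strand: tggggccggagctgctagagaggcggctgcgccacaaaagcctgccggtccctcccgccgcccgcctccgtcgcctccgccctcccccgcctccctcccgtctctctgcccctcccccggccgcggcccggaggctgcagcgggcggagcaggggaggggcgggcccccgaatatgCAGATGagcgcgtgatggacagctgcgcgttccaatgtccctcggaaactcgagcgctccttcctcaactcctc
OTX2, chr14:56810480-56810729, minus strand: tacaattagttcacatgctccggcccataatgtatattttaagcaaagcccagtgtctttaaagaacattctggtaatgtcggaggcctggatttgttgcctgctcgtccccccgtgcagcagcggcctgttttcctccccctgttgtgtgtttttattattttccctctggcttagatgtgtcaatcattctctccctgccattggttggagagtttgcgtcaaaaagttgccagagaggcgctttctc
The stretches of POU4F1 and IRX2 had a G and C content of 71.2% and 72.8%, and that of OTX2 47.2%. Of the 36 genes, 32 matched an entry in the table; LHX1, LHX5, ONECUT3 and IRX5 are named only. Motifs were searched on both strands and separately, so overlapping matches count for each. The cyclic AMP response element TGACGTCA, the kind of site ATF2 is known to bind, was in 1 of 32 stretches (ISL2) and in 1.77% of all 27305 promoter windows in the table. The AP-1 site TGANTCA was in 1 (DLX1) against 6.60% of all, the homeodomain core TAATTA in 0 against 4.49%, and the E-box CAGATG in 2 (LHX9 and IRX2) against 12.2%. A match is a description of letters in this window, and a window without one says nothing about the factor.

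**Figure D1:**
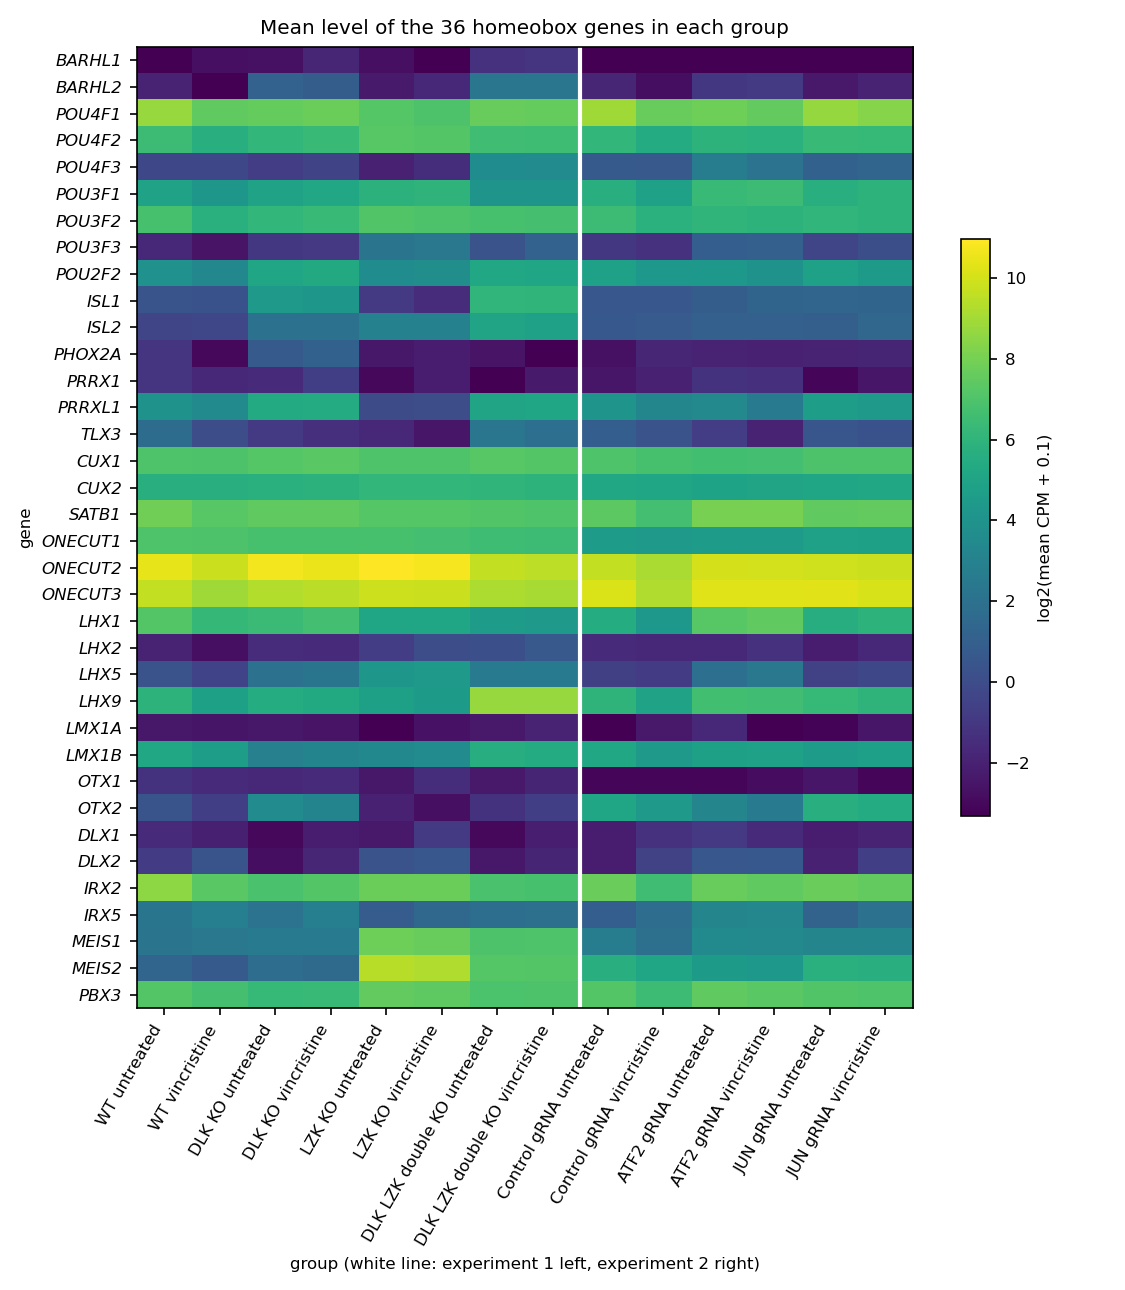
Mean level of the 36 homeobox genes (rows, in groups by role) in the 14 groups (columns), as log2 of mean CPM plus 0.1; the white line separates the experiments. ONECUT2 and ONECUT3 are high in every group, whereas the group means of MEIS2 are 1.57 to 3.28 CPM in WT and DLK KO and 620 to 675 CPM in LZK KO.

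Per kilobase of gene length, the order of levels was led by ONECUT3 and ONECUT2, cut-homeodomain factors of early neurons. Over all libraries of the first experiment the mean was 84.0 CPM per kilobase for ONECUT3, 82.7 for ONECUT2, 53.8 for IRX2, 46.4 for POU4F1 and 30.6 for POU4F2. In the second experiment it was 131 for ONECUT3, 68.2 for POU4F1, 54.5 for ONECUT2, 52.3 for IRX2 and 30.6 for PBX3. The same 4 genes were on top in both experiments. At the other end, LMX1A had at most 3 counts in every library of the first experiment, and BARHL1 had no count in the second. The genes reaching a group mean of 1 CPM in at least 1 group numbered 31 in the first experiment and 28 in the second. After the filter on low counts, 31 of the 36 were tested in the first experiment (not BARHL1, PRRX1, LMX1A, OTX1 or DLX1) and 33 in the second (not BARHL1, LMX1A or OTX1); the genes left out had too few counts for a test.

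In WT neurons, 16 hours of vincristine lowered 19 of the 30 tested genes and raised 2, DLX2 and IRX5 (BARHL2 was left out of the count). Over all 18235 tested genes, 15.7% rose and 14.5% fell. A call here is an adjusted p under 0.05 in edgeR's quasi-likelihood test with Benjamini-Hochberg adjustment over all genes tested. The median log2 fold change of the 30 genes was -0.61 and that of all genes -1.89e-05. In bulk samples, fewer cells of a type and less RNA per cell cannot be told apart. In the same libraries the sum of the 11 neuronal markers was 14888 to 15761 CPM untreated and 12459 to 14080 CPM with vincristine. Of those 11 markers, 3 were called lower and 2 higher. The sum of 8 neural progenitor markers was 786 to 830 CPM untreated and 1064 to 2106 CPM with vincristine. VIM and NES, filament genes that neurons can also express, were among the progenitor markers called higher. The part of these shifts in the falls below was not tested.

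POU4F1 (chr13:78598362-78603560, minus strand, a protein-coding gene), also known as BRN3A and a regulator of sensory neuron identity, was at 423, 455, 437 and 425 CPM in the 4 untreated WT libraries and at 201, 213, 188 and 108 CPM with vincristine. The groups did not overlap. The log2 fold change was -1.29 ± 0.12 (SE, adjusted p = 2.88e-10), and the median of its tested neighbours within 2 Mb was -0.32. IRX2 (chr5:2745845-2751662, minus strand), an Iroquois factor of neural patterning, went from 382, 384, 373 and 363 CPM to 186, 203, 164 and 82.3 CPM. These groups did not overlap either, with the lowest vincristine value again in replicate 4. Its log2 fold change was -1.24 ± 0.16 (adjusted p = 5.46e-07; neighbours -0.39). LHX9 (chr1:197911902-197935478, plus strand), a LIM factor of spinal and forebrain neurons, was at 67.4, 61.4, 59.1 and 54.2 CPM untreated and 26.9, 32.8, 24.7 and 25.8 CPM treated. All treated values were under all untreated ones, and the log2 fold change was -1.13 ± 0.07 (adjusted p = 6.05e-15).

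TLX3, a factor of glutamatergic sensory neurons, fell by 1.78 on the log2 scale (SE 0.28, adjusted p = 5.89e-06), from 2.60 to 4.01 CPM untreated to 0.608 to 1.17 CPM. DLX2, an interneuron factor, rose by 1.42 ± 0.38 (adjusted p = 0.00419). Its untreated libraries had 3, 4, 8 and 6 counts and its vincristine libraries 13, 15, 21 and 4, and the groups overlapped. OTX2 fell by 1.22 on the log2 scale (SE 0.39, adjusted p = 0.0159), with a mean of 1.19 CPM untreated. That call was lost on leaving out WT untreated replicate 2 (adjusted p = 0.0736), WT vincristine replicate 2 (0.0546) or WT vincristine replicate 3 (0.063). The other called genes at 1 CPM or more were POU3F2, LHX1, LHX5, ONECUT3, POU4F2, POU3F1, SATB1, MEIS2, POU2F2, ONECUT2, LMX1B, PRRXL1 and PBX3, all lower, from -1.08 (POU3F2) to -0.39 (PBX3), and IRX5, higher at 0.65. IRX5's call was lost without WT vincristine replicate 3 (adjusted p = 0.0511). LHX5's was lost in 5 of 13 alternatives, among them leaving out WT untreated replicate 2 (adjusted p = 0.0801), 3 (0.0819) or 4 (0.0664) or vincristine replicate 3 (0.159). MEIS2's was lost in 6 of 14, among them leaving out WT untreated replicate 3 (0.0503) or 4 (0.0911) or vincristine replicate 2 (0.064). PHOX2A, a factor of autonomic neurons under 1 CPM in both groups, was called lower on 0, 5, 4 and 6 counts against 0, 0, 1 and 0. By role, the calls were 2 of 3 POU4 genes, 3 of 4 other POU genes, 4 of 5 LIM genes and 2 of 3 TALE genes lower, 3 of 6 cut and SATB genes lower, 3 of 5 genes of peripheral, sensory and motor neurons lower, and 2 of 4 OTX, DLX and IRX genes lower and the other two higher. Without WT vincristine replicate 4, 20 of the 21 calls remained. MEIS2 was then not called (adjusted p = 0.16), and the falls of POU4F1, IRX2 and LHX1 were -1.12, -1.03 and -0.79, while LMX1B moved from -0.50 to -0.33.

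**Figure D2:**
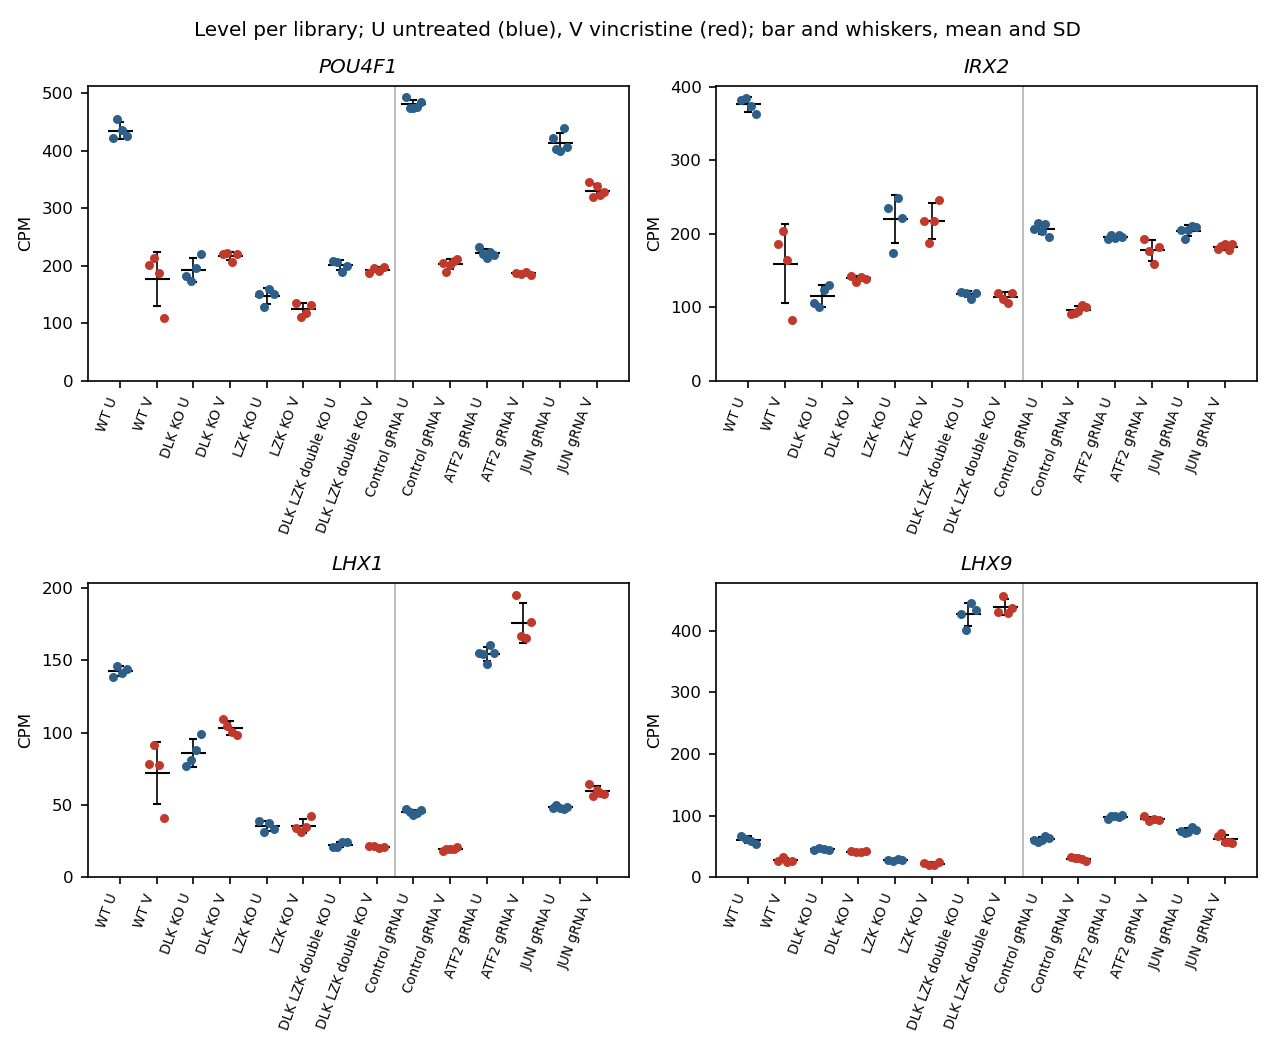
CPM of POU4F1, IRX2, LHX1 and LHX9 in each library of the 14 groups (points; blue untreated, red vincristine; bar and whiskers, mean and SD; the axes start at 0 and the grey line separates the experiments). In WT and in Control gRNA, each vincristine library is below each untreated library.

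The Control gRNA neurons were a separate experiment with independent libraries. Vincristine lowered 18 of 33 tested genes and raised 2 (again DLX2 and IRX5), where 17.1% of all 20759 tested genes rose and 18.1% fell. The median of the genes was -0.56 and that of all genes 0.03. The neuronal marker sum was 14649 to 15096 CPM untreated and 10685 to 11292 CPM treated. Of its 11 markers, 7 were called lower and 2 higher. The progenitor marker sum was 1328 to 1421 CPM untreated and 2565 to 2660 CPM treated. The part of these markers in the falls was not tested.

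POU4F1 was at 494, 475, 475, 476 and 484 CPM untreated and at 204, 188, 202, 208 and 211 CPM with vincristine. The 2 groups were far apart, with a log2 fold change of -1.24 ± 0.03 (adjusted p = 3.34e-31). LHX1 (chr17:36936785-36944612, plus strand), a LIM factor of interneurons and motor neurons, went from 47.0, 45.1, 43.1, 44.1 and 46.3 CPM to 18.3, 19.1, 19.4, 19.7 and 21.0 CPM. Those values did not overlap, and the log2 fold change was -1.21 ± 0.05 (adjusted p = 6.86e-25). IRX2 went from 196 to 214 CPM over 5 untreated libraries to 91.1 to 104 CPM (-1.10 ± 0.04, adjusted p = 4.45e-26). LHX9 went from 56.8 to 66.1 CPM to 25.8 to 32.7 CPM (-1.04 ± 0.06, adjusted p = 4.53e-19; neighbours 0.30). Both were apart without overlap. ONECUT3 (chr19:1752373-1780988, plus strand) was at a mean of 1124 CPM untreated and 602 CPM treated, a change of -0.90 ± 0.03 (adjusted p = 1.96e-29). IRX5 rose by 0.84 ± 0.16 (adjusted p = 3.88e-05), with untreated libraries at 1.23 to 2.38 CPM and treated libraries at 2.78 to 4.24 CPM. The other called genes were PRRXL1, LMX1B, POU3F1, MEIS1, OTX2, PBX3, SATB1, POU4F2, POU3F2, POU2F2, ONECUT2, MEIS2 and CUX1, all lower, from -0.84 (PRRXL1) to -0.21 (CUX1). DLX2 was called higher at under 1 CPM, on 0, 4, 13, 5 and 10 counts untreated and 43, 37, 34, 31 and 32 with vincristine.

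Of 30 genes tested in both control lines, 16 were called lower in both, which is 84.2% of the 19 in WT and 88.9% of the 18 in Control gRNA. DLX2 and IRX5 were called higher in both, and none was called in opposite directions. LHX5, PHOX2A and TLX3 were called lower in WT alone, and CUX1 and MEIS1 in Control gRNA alone; the difference between the experiments was not tested. Genes at 1 CPM or more in both lines numbered 23, of which 21 had the same sign. The matching overlap and share of same signs over all tested genes are not given here, so nothing is read from these counts.

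**Figure D3:**
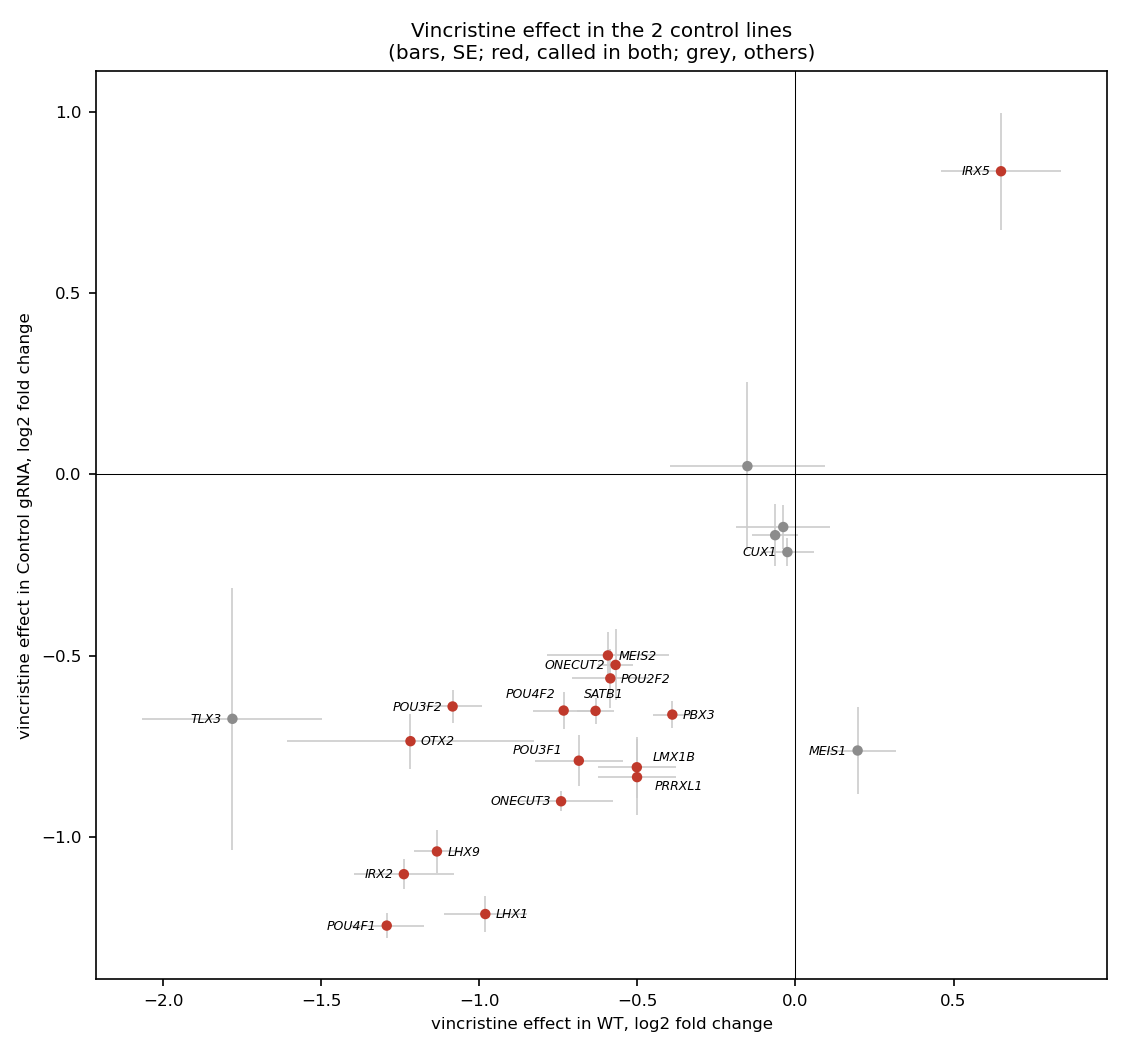
Log2 fold change with vincristine in WT (x axis) and in Control gRNA neurons (y axis) for the 23 homeobox genes at 1 CPM or more in both; bars are SE and red points were called in both. POU4F1, IRX2, LHX9 and LHX1 sit at the lower left, and IRX5 is the gene at the upper right.

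The same treatment was given to the knockout lines. In DLK KO, 1 of 30 was called, IRX5, higher by 0.75 ± 0.19 (adjusted p = 0.0163), where 4.24% of all genes rose and 2.28% fell. IRX5, an Iroquois factor like IRX2, was at 3.35, 4.69, 4.24 and 4.41 CPM untreated and 6.89, 7.34, 7.43 and 6.29 CPM treated. These values did not overlap, but leaving out untreated replicate 1 of DLK KO (adjusted p = 0.0827) or its vincristine replicate 2 (0.0524) ended the call. In that line the count was 0 without either of those libraries, 2 without DLK KO untreated replicate 3, 2 by DESeq2 and 9 in a fit of these groups alone. In LZK KO, 2 of 30 were called lower, LHX9 (-0.37 ± 0.08, adjusted p = 0.00382) and ONECUT2 (-0.19 ± 0.05, adjusted p = 0.0346), and none was called higher (3 by DESeq2 in all; 5 at an unadjusted p under 0.05 in edgeR), where 2.27% of all genes rose and 1.61% fell. LHX9 was at 27.1, 26.9, 29.0 and 28.4 CPM untreated and 23.0, 20.4, 19.1 and 23.8 CPM treated, without overlap. The LZK KO count was 1 in 7 of the 8 fits that left out a library, with ONECUT2 the gene lost, and 0 in a fit of these groups alone. In the double KO no gene was called by edgeR or DESeq2, with 2 at an unadjusted p under 0.05, where 0.00548% of all genes rose and 0.0603% fell. POU4F1 there was at 208, 207, 189 and 200 CPM untreated and 188, 196, 191 and 197 CPM with vincristine, with overlap. The progenitor marker sum was 240 to 308 CPM untreated and 540 to 651 CPM treated in DLK KO. It was 606 to 764 CPM and 1121 to 1320 CPM in LZK KO, and 324 to 334 CPM and 327 to 346 CPM in the double KO. The neuronal marker sum was 14853 to 16263 CPM untreated and 16230 to 17121 CPM treated in DLK KO. In LZK KO it was 15977 to 17328.5 CPM and 18191 to 18662 CPM, and in the double KO 19240 to 19474 CPM and 18631 to 20004 CPM. Of the 11 neuronal markers, 1 was called higher and 1 lower in DLK KO and likewise in LZK KO, and 0 and 1 in the double KO. The part of these markers was not tested in the knockout lines.

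The differences in the vincristine effect between these lines and WT share the WT libraries, and lines of this experiment entered the choice of genes, so no p is given and nothing is read from the counts. With DLK KO, 16 of 30 genes had a call in the higher direction (a smaller fall than in WT, or a rise) and 0 in the lower, where the shares of all genes were 9.95% and 9.41%. With LZK KO it was 13 and 0, beside 5.88% and 6.53%, and with the double KO 14 and 0, beside 9.21% and 10.2%. For POU4F1 the difference was 1.46 ± 0.16 with DLK KO, 1.05 ± 0.17 with LZK KO and 1.23 ± 0.16 with the double KO. For IRX2 it was 1.51 ± 0.22, 1.22 ± 0.22 and 1.19 ± 0.22, and for LHX9 0.99 ± 0.10, 0.76 ± 0.11 and 1.17 ± 0.10. The other genes with a call in DLK KO were PHOX2A (3.66 ± 1.17, with 1 count over the 4 treated WT libraries), POU3F2 (1.27 ± 0.13), LHX1 (1.24 ± 0.18), LHX5 (1.17 ± 0.38), POU3F1, POU4F2, ONECUT3, POU2F2, LMX1B, SATB1, PRRXL1, PBX3 and ONECUT2, the last 9 from 0.98 to 0.41. In LZK KO they were LHX1 (0.98 ± 0.19), POU3F2 (0.96 ± 0.13), POU3F1 (0.78 ± 0.19), LMX1B, ONECUT3, POU2F2, POU4F2, SATB1, ONECUT2 and PBX3, the last 7 from 0.73 to 0.29. ONECUT3's was lost in 13 of 22 alternatives. In the double KO they were OTX2 (1.87 ± 0.63, lost in 9 of 22), TLX3 (1.40 ± 0.36), POU3F2 (1.02 ± 0.13), LHX1, POU3F1, POU4F2, SATB1, PRRXL1, POU2F2, PBX3 and ONECUT2, the last 8 from 0.87 to 0.43. In all of these knockout lines untreated POU4F1 was already lower than in untreated WT, and its range overlapped that of treated WT. Untreated LHX9 was lower than in untreated WT in DLK KO and LZK KO, and higher in the double KO. In LZK KO its untreated range overlapped that of treated WT. Mean untreated IRX2 was 376 CPM in the WT line, 115 CPM in DLK KO, 219 CPM in LZK KO and 118 CPM in the double KO. In untreated DLK KO against WT the neighbours of IRX2 had a median of -1.08.

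With ATF2 gRNA, vincristine lowered 7 of 33 genes and raised 1, beside 1.88% of all genes higher and 4.22% lower. PRRXL1, a paired-type factor of sensory neurons, fell by 0.86 on the log2 scale (SE 0.12, adjusted p = 1.57e-06), from 9.12 to 11.1 CPM in 5 untreated libraries to 4.19 to 6.74 CPM in 4 treated ones, without overlap. OTX2 fell by 0.60 (SE 0.09, adjusted p = 1.62e-05), from a mean of 8.99 CPM to 5.93 CPM. POU4F1 fell by 0.25 (SE 0.04, adjusted p = 4.95e-06), from 233, 221, 213, 223 and 218 CPM to 188, 186, 189 and 185 CPM, again without overlap. LHX1 rose by 0.19 ± 0.05 (adjusted p = 0.0108), from 155, 155, 147, 161 and 155 CPM to 195, 167, 165 and 177 CPM, and that call was lost without replicate 2 of the treated group (adjusted p = 0.0973). PBX3, a partner of HOX and MEIS proteins, fell by 0.17 (SE 0.04, adjusted p = 0.00608). POU2F2 fell by 0.30 (SE 0.09, adjusted p = 0.0272), with overlap; leaving out untreated replicate 1 (adjusted p = 0.0822), vincristine replicate 3 (0.153) or vincristine replicate 4 (0.149) ended its call. IRX2, the other gene called at 1 CPM or more (-0.14), lost its call in 12 of 15 alternatives. TLX3 was called lower at under 1 CPM, with 37, 15, 14, 33 and 29 counts untreated and 1, 8, 16 and 5 treated. Without vincristine replicate 3 the count was 5.

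JUN gRNA neurons had 8 genes lower and 4 higher with vincristine, beside 7.58% of all genes higher and 8.31% lower. IRX5 rose by 0.83 ± 0.16 (adjusted p = 7.66e-05), from 2.05 to 2.73 CPM to 3.41 to 4.88 CPM, without overlap. POU4F1 fell by 0.32 (SE 0.03, adjusted p = 2.1e-10), from 423, 403, 399, 439 and 407 CPM to 345, 319, 339, 323 and 329 CPM. All treated values lay under the untreated ones, and above the 188 to 211 CPM of treated Control gRNA libraries. LHX1 rose by 0.30 ± 0.05 (adjusted p = 2.71e-06), from 47.1 to 49.8 CPM to 55.9 to 64.7 CPM, whereas it fell in Control gRNA neurons. POU2F2, a B-cell and neuronal POU factor, fell by 0.38 (SE 0.08, adjusted p = 0.000447), and LHX9 by 0.29 (SE 0.06, adjusted p = 0.0002). PRRXL1 fell by 0.28 (SE 0.10, adjusted p = 0.0452), with overlap, and leaving out untreated replicate 1 (adjusted p = 0.168), untreated replicate 3 (0.159), vincristine replicate 2 (0.208) or vincristine replicate 3 (0.0902) ended that call. The other called genes at 1 CPM or more were POU3F1, higher at 0.22, and OTX2, ONECUT3, POU3F2 and IRX2, lower from -0.24 to -0.16. Leaving out untreated replicate 2 (adjusted p = 0.0723) or treated replicate 3 (0.0539) ended the call of POU3F1. That of OTX2 ended without untreated replicate 3 (0.0856) or without treated replicate 2 (0.0512) or 3 (0.0522). DLX2 was called higher at under 1 CPM, with 8, 11, 7, 10 and 8 counts untreated and 10, 4, 59, 44 and 37 treated. The progenitor marker sum was 768 to 841 CPM untreated and 735 to 845 CPM treated with ATF2 gRNA, and 967 to 1090 CPM and 1671 to 1777 CPM with JUN gRNA. The neuronal marker sum was 12848 to 13095 CPM untreated and 11894 to 12467 CPM treated with ATF2 gRNA. With JUN gRNA it was 14219 to 14950 CPM and 11832 to 12084 CPM. Of the 11 neuronal markers, 0 were called higher and 3 lower with ATF2 gRNA, and 2 and 7 with JUN gRNA. The part of these markers in the vincristine effects was not tested.

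The test of the difference itself, the interaction of knockdown and drug, called 15 genes higher (a smaller fall, or a rise, against Control gRNA) and 2 lower with ATF2 gRNA, beside 10.2% and 10.4% of all genes. With JUN gRNA it called 16 higher and 0 lower, beside 8.71% and 7.06% of all genes. Both share the Control gRNA libraries. Among the called genes LHX1 had the largest difference in the higher direction in both, 1.40 ± 0.07 with ATF2 gRNA (adjusted p = 5.19e-21) and 1.51 ± 0.07 with JUN gRNA (adjusted p = 1.35e-21). Its vincristine levels were 18.3 to 21.0 CPM with Control gRNA, 165 to 195 CPM with ATF2 gRNA and 55.9 to 64.7 CPM with JUN gRNA. Before treatment LHX1 was already higher with ATF2 gRNA than with Control gRNA. POU4F1 differed by 1.00 ± 0.05 (adjusted p = 4.71e-21) and 0.92 ± 0.05 (adjusted p = 7.09e-20), IRX2 by 0.96 ± 0.06 (1.73e-17) and 0.94 ± 0.06 (3.14e-17), and LHX9 by 0.98 ± 0.09 (1.25e-12) and 0.75 ± 0.08 (2.18e-09). Untreated POU4F1 was already lower with ATF2 gRNA than with Control gRNA, and its mean treated level there was not above that with Control gRNA. POU3F1, a POU factor of developing neurons and Schwann cells, differed by 0.95 ± 0.10 (adjusted p = 6.44e-10) and 1.01 ± 0.10 (adjusted p = 7.98e-11). LMX1B, a factor of dopaminergic and serotonergic neurons, differed by 0.98 ± 0.12 with JUN gRNA (adjusted p = 1.48e-08). DLX2 went the other way with ATF2 gRNA (-2.26 ± 0.73, adjusted p = 0.0215), and so did IRX5 (-0.75): DLX2 was at a mean of 1.40 CPM in both ATF2 gRNA groups. The other called genes were ONECUT3, LMX1B, SATB1, MEIS1, POU3F2, POU4F2, PBX3, ONECUT2, MEIS2 and CUX1 with ATF2 gRNA, from 0.94 to 0.23. Of these, ONECUT2 (0.42) was not called in 14 of 25 alternatives, including the replicate block (0.0635) and the removal of any of 11 single libraries, with adjusted p up to 0.0881, and MEIS2 (0.30) without untreated replicate 4 of ATF2 gRNA (0.0509). With JUN gRNA they were MEIS1, ONECUT3, SATB1, POU4F2, PBX3, PRRXL1, OTX2, POU3F2, MEIS2 and CUX1, from 0.72 to 0.21.

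**Figure D4:**
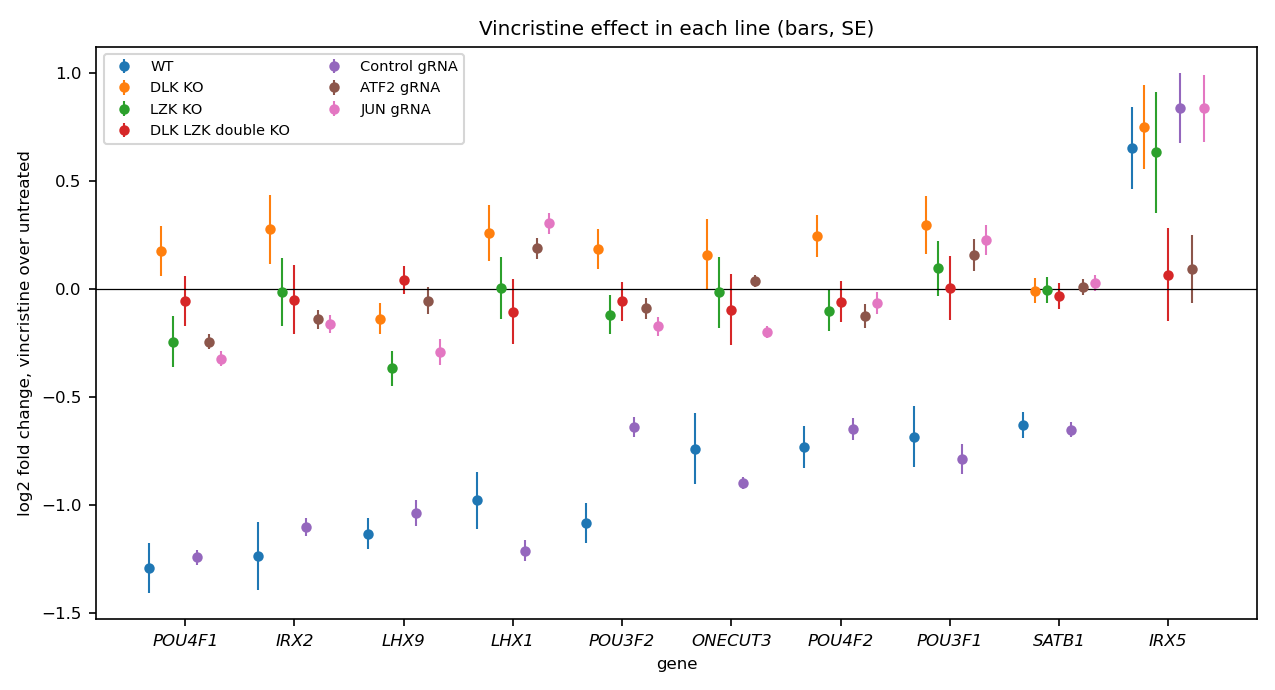
Log2 fold change with vincristine of 10 homeobox genes in each of the 7 lines (points; bars are SE). In WT and Control gRNA the first 9 genes lie between -1.29 and -0.63, and in the other lines they lie closer to 0; IRX5 is above 0 in all 7 lines.

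Untreated neurons with ATF2 gRNA differed from Control gRNA in 24 of 33 genes, 13 higher and 11 lower, beside 19.7% of all genes higher and 20.2% lower. The largest were low-level genes. DLX2 was at 1.18 to 1.83 CPM against 0 to 0.192 CPM (3.51 ± 0.55, adjusted p = 6.36e-07; neighbours 0.38). LHX5, a LIM factor of hippocampal and spinal development, was at 3.06 to 3.88 CPM against 0.270 to 0.847 CPM (2.72 ± 0.30, adjusted p = 2.04e-10), and IRX5 at 7.91 to 10.4 CPM against 1.23 to 2.38 CPM (2.30 ± 0.16, adjusted p = 2.03e-16). None of these groups overlapped. POU3F3, a POU factor of cortical neurons, rose by 2.18 ± 0.37 (adjusted p = 3.13e-06), from a mean of 0.402 CPM to 1.85 CPM. POU4F3, the POU4 factor of inner ear hair cells, rose by 2.03 ± 0.22 (adjusted p = 1.53e-10), from a mean of 1.55 CPM to 6.26 CPM. OTX2 fell by 1.97 (SE 0.08, adjusted p = 5.66e-25), from 35.9, 36.0, 34.6, 36.8 and 33.3 CPM to 8.35, 8.79, 8.36, 9.02 and 10.4 CPM, with no overlap. LHX1 and POU4F1 were chosen here after their values were seen: LHX1 was at 43.1 to 47.0 CPM with Control gRNA and 147 to 161 CPM with ATF2 gRNA (1.78 ± 0.05), and POU4F1 at 475 to 494 CPM and 213 to 233 CPM (-1.12 ± 0.03). Both were apart without overlap. The remaining calls were MEIS1, SATB1, POU3F1, LHX9, ONECUT2, PBX3 and ONECUT3, higher from 0.82 to 0.11, and TLX3, MEIS2, PRRXL1, POU2F2, POU3F2, LMX1B, CUX1, CUX2 and POU4F2, lower from -1.88 to -0.19. The neighbours of SATB1 had a median of 0.53. The sum of 6 GABAergic neuron markers was 24.2 to 28.5 CPM in these libraries and 1.88 to 2.99 CPM with Control gRNA, and the sum of 7 pluripotent cell markers 33.9 to 40.4 CPM and 10.3 to 13.5 CPM. Of the pluripotent cell markers, only LIN28A and DPPA4 reached 1 CPM in these groups, and POU5F1 and NANOG did not. The part of these markers in the differences was not tested.

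Between untreated JUN gRNA and Control gRNA neurons, 12 of 33 genes were called, 9 higher and 3 lower with JUN gRNA, beside 5.78% of all genes higher and 5.46% lower. ISL1, a LIM factor of motor and sensory neurons, rose by 0.83 ± 0.23 (adjusted p = 0.0119), from 1.05 to 1.69 CPM to 1.99 to 3.32 CPM, without overlap. Without JUN gRNA untreated replicate 3, its highest library, that call was lost (adjusted p = 0.0576). PRRXL1 rose by 0.62 ± 0.10 (adjusted p = 1.31e-05) and OTX2 by 0.55 ± 0.07 (adjusted p = 2.46e-07), from 33.3 to 36.8 CPM to 47.0 to 58.0 CPM. MEIS1 rose by 0.50 ± 0.11 (adjusted p = 0.00194). LMX1B fell by 0.65 (SE 0.08, adjusted p = 1.08e-07), from 39.6, 40.0, 36.0, 37.6 and 34.4 CPM to 23.4, 24.4, 27.8, 21.2 and 22.8 CPM, and POU3F2 by 0.36 (SE 0.04, adjusted p = 5.36e-08). The values of LMX1B did not overlap. The others were LHX9, ONECUT1, POU4F2, ONECUT3 and SATB1, higher from 0.30 to 0.15, and POU4F1, lower at -0.21. ONECUT1's call was lost on leaving out replicate 1 (adjusted p = 0.0656), 2 (0.14) or 4 (0.0551) of Control gRNA, or replicate 2 (0.0951), 4 (0.0532) or 5 (0.054) of JUN gRNA. That of POU4F2 was lost on leaving out replicate 2 (0.0541) or 4 (0.0561) of Control gRNA or replicate 3 (0.0556) of JUN gRNA.

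The untreated knockout lines of the first experiment expressed different sets of factors. The genes named below had calls, but the lines entered the choice of genes, so no p is given for them and nothing is read from the counts. DLK KO had 10 genes higher and 12 lower than WT of 30, beside 16.5% and 17.9% of all genes, LZK KO 12 and 13 beside 17.1% and 16.8%, and the double KO 14 and 11 beside 23.6% and 22.1%. The 3 comparisons share the WT libraries.

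MEIS2 (chr15:36889204-37101299, minus strand) and MEIS1 (chr2:66433452-66573869, plus strand) are TALE cofactors of neural patterning. MEIS2 was at 2.10, 2.33, 2.39 and 2.88 CPM in WT, 2.39 to 3.73 CPM in DLK KO, 658, 669, 706 and 666 CPM in LZK KO and 144, 145, 154 and 149 CPM in the double KO. LZK KO was highest and no library of it came near another line. The log2 fold change against WT was 8.12 ± 0.12 in LZK KO and 5.93 ± 0.12 in the double KO, where the neighbours of MEIS2 had a median of 1.17. MEIS1 was at 4.01 to 4.67 CPM in WT, 215 to 233 CPM in LZK KO (5.65 ± 0.09) and 124 to 131 CPM in the double KO (4.82 ± 0.09). In the second experiment MEIS2 was already at 44.7 to 51.8 CPM in untreated Control gRNA neurons, so WT and Control gRNA differed in its level; the tables were scaled separately.

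ISL1 (chr5:51383391-51394738, plus strand) had another order. It was at 0.993 to 1.47 CPM in WT, 21.7, 21.7, 20.7 and 17.9 CPM in DLK KO (4.05 ± 0.15; neighbours -0.32), 67.8, 65.5, 66.3 and 65.4 CPM in the double KO (5.74 ± 0.14; neighbours 0.46) and 0.118 to 0.796 CPM in LZK KO. The double KO was highest and LZK KO lowest, without overlap between any of the lines. ISL2, its relative in motor and sensory neurons, was at a mean of 0.704 CPM in WT, 4.03 CPM in DLK KO (2.50 ± 0.21), 7.73 CPM in LZK KO and 32.1 CPM in the double KO (5.49 ± 0.16). POU4F3 was at 10.7 to 14.0 CPM in the double KO (4.07 ± 0.28; neighbours 0.34) and at 0 to 1.03 CPM in the untreated libraries of the other 3 lines. LHX9 was at 427, 401, 445 and 434 CPM in the double KO (2.82 ± 0.07; neighbours 0.37), 54.2 to 67.4 CPM in WT, 44.5 to 47.7 CPM in DLK KO and 26.9 to 29.0 CPM in LZK KO. Each of those ranges stood apart from the others.

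OTX2 was at 10.6 to 13.6 CPM in DLK KO (3.31 ± 0.24) and 0.956 to 1.68 CPM in WT, and 0 to 0.587 CPM in the other 2 lines. LMX1B was at 33.5 to 40.7 CPM in WT and 6.38 to 8.61 CPM in DLK KO (-2.34 ± 0.14), and TLX3 at 2.60 to 4.01 CPM in WT, 0.323 to 0.499 CPM in DLK KO (-2.85 ± 0.33) and 0 to 0.463 CPM in LZK KO (-3.82 ± 0.39). PHOX2A, which reached 1.56 CPM in DLK KO, was at 0.336 CPM in WT (2.20 ± 0.51). PRRXL1 was at 13.8 to 17.9 CPM in WT and 0.227 to 1.32 CPM in LZK KO (-4.17 ± 0.20), where LHX5 was at 15.5 to 24.9 CPM against 0.860 to 1.30 CPM in WT (4.00 ± 0.19). POU3F3 was at 2.53 to 5.77 CPM in LZK KO and 0.0956 to 0.397 CPM in WT (4.38 ± 0.40). The remaining genes called in DLK KO were DLX2 (under 1 CPM, with 0, 1, 1 and 0 counts against 3, 4, 8 and 6 in WT; neighbours -0.88), IRX2 (neighbours -1.08), LHX5, PRRXL1, POU2F2, POU4F1, PBX3, LHX1, POU3F2, MEIS2, LHX9, SATB1, MEIS1, POU4F2, ONECUT2 and ONECUT1. In LZK KO they were ISL2, OTX2, POU4F3 (under 1 CPM), LHX1, LMX1B, POU4F1, ISL1, IRX5, DLX2, LHX9 (neighbours 0.35), POU3F1, POU4F2, IRX2, SATB1, ONECUT2, CUX2, PBX3, POU3F2 and ONECUT1, from 3.43 (ISL2) to -3.01 (OTX2) among those at 1 CPM or more. POU4F3 had 2, 1, 0 and 2 counts there and 6, 11, 6 and 10 in WT. In the double KO they were LHX1, LHX2, POU3F3, DLX2 (under 1 CPM, with 1 count in each library), LHX5, OTX2, IRX2, POU2F2, POU4F1, PRRXL1, POU3F1, SATB1, ONECUT2 (neighbours -0.99), TLX3, ONECUT1, ONECUT3, LMX1B, CUX1 and PBX3. POU4F1 was lower in all 3 lines, with ranges of 174 to 220 CPM for DLK KO, 128 to 159 CPM for LZK KO and 189 to 208 CPM for the double KO, against 423 to 455 CPM for WT. In these lines markers of other cell types differed as well: the sum of 7 pluripotent cell markers was 3.44 to 5.36 CPM in untreated WT and 54.0 to 59.9 CPM in the double KO, and MKI67, a gene of dividing cells, was at a mean of 4.83 CPM in WT and 33.1 CPM in LZK KO. Of the 8 progenitor markers, which include MKI67, 6 were higher and 2 lower in untreated LZK KO than in WT. Their sum was 786 to 830 CPM in untreated WT and 606 to 764 CPM in untreated LZK KO. Of the pluripotent cell markers, only LIN28A and DPPA4 reached 1 CPM in the double KO. POU5F1, NANOG, ZFP42, TDGF1 and L1TD1 did not. The part of these markers was not tested.

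**Figure D5:**
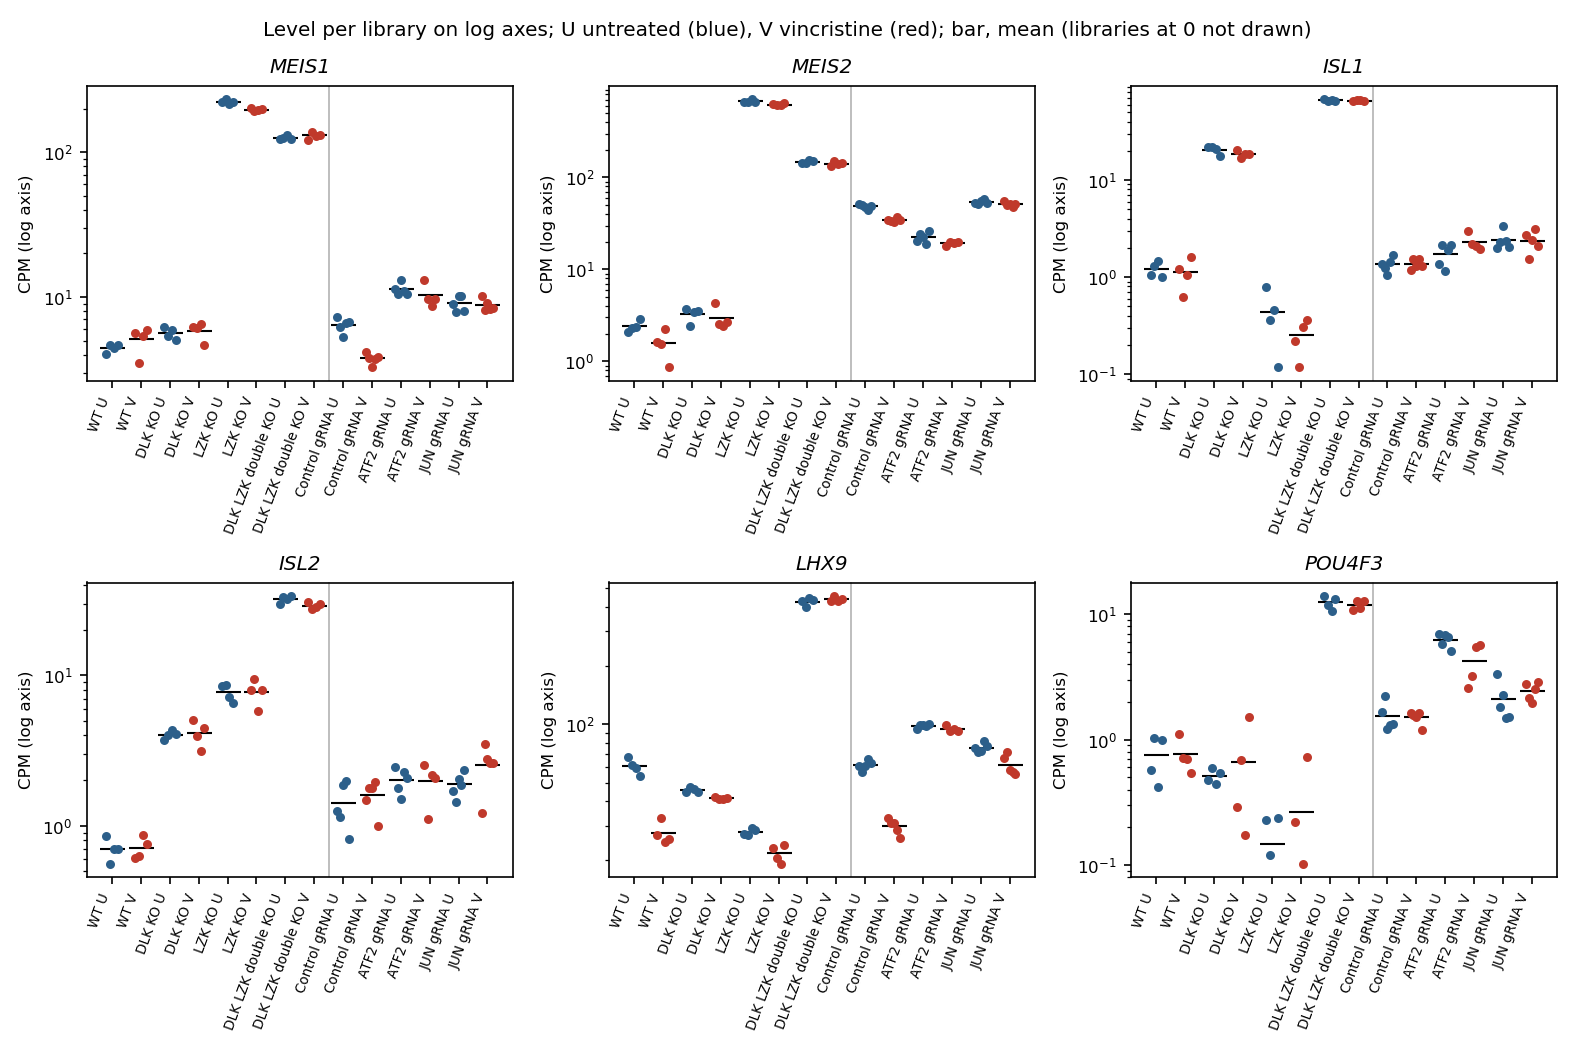
CPM (log axes) of MEIS1, MEIS2, ISL1, ISL2, LHX9 and POU4F3 in each library of the 14 groups (points; blue untreated, red vincristine; bar, mean; libraries at 0 are not drawn; the grey line separates the experiments). MEIS1 and MEIS2 are highest in LZK KO, and ISL1, ISL2, LHX9 and POU4F3 in the double KO.

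BARHL2 (chr1:90711539-90717237, minus strand), a factor of spinal commissural and retinal neurons, was chosen for its pattern across these lines, so its levels are a description. It had 0, 3, 3 and 2 counts in untreated WT and 0 in all 4 vincristine libraries. DLK KO had 23, 26, 22 and 16 counts untreated and 14, 23, 20 and 20 treated (means of 2.11 and 1.74 CPM), and the double KO 53, 57, 55 and 48 and 33, 71, 62 and 55 (4.79 and 4.84 CPM). LZK KO had 0 to 4 counts. The double KO was above DLK KO, and both above WT and LZK KO, with no overlap of untreated libraries, while WT and LZK KO overlapped. The neighbours of BARHL2 in DLK KO against WT had a median of 0.31. In the second experiment, which the choice did not use, BARHL2 had 0 to 48 counts in these deeper libraries, with no group mean above 0.442 CPM and wide spread within groups: 0, 43, 18, 26 and 20 counts in untreated ATF2 gRNA libraries and 0, 26, 7, 4 and 4 with Control gRNA. It was called in none of the 7 comparisons tested there by edgeR, and 0 of them had an unadjusted p under 0.05. BARHL1 (chr9:132582185-132590266, plus strand), its close relative, had 0 to 7 counts in the first experiment. The highest were in the double KO, with 2, 3, 5 and 4 counts untreated and 4, 4, 1 and 7 treated, and it had 0 counts in all 29 libraries of the second.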

How the data were processed

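RNA-seq was measured in 61 samples of 14 groups in 2 experiments. The deposited tables hold raw read counts per gene, in 1 table for each experiment, with gene coordinates and lengths; a stranded kit, poly(A) selection and paired reads were used, per the labels. The submitters' processing notes name STAR, cutadapt 3.4, featureCounts and Subread 2.0.1 and the GRCh38 build; the strand setting and the handling of duplicates are not given in the sources used here. Symbols came from GENCODE 29.

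Counts were fitted with edgeR 4.0.16 (R 4.3.3): TMM factors, filterByExpr by group, 1 robust quasi-likelihood fit for each experiment over all its groups, 2-sided tests adjusted by Benjamini-Hochberg over all genes tested, and a call at an adjusted p under 0.05. SE values derive from the fold change and the F statistic. Scripts were tested on simulated data; in the second experiment small changes of genes under about 2 CPM are poorly resolved. Alternatives were DESeq2 1.42.0, other size factors, other filters, fits of the compared groups alone, a replicate block and leaving out each library. Replicate numbers did not pair the samples, and no 2 libraries of the same group agreed within sampling noise.

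The genes and all lists were chosen with earlier results of these data known. In each comparison the called genes are named, with values for up to 6 with the largest change and a group mean of at least 1 CPM; called genes below that have counts and no fold. Values of some genes of the other lists are not reported here. Medians over neighbours within 2 Mb are given from 0.3 (log2) in size. Differences between lines of the first experiment are printed with no p because of how the genes were chosen.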

Additional observations from a re-analysis of the deposited data

Results flagged for a closer look

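Within the groups of 4 or 5 libraries, 354 combinations of gene and group were examined for a library far from the others, and 19 had one by Dixon's criterion; chance gives about 1 in 20. BARHL2 was high in DLK LZK double KO untreated replicate 1 (5.51 CPM) and low in vincristine replicate 1 (3.64 CPM). In the same line POU3F2 was high in untreated replicate 4 (115.8 CPM), CUX2 high in untreated replicate 2 (71.4 CPM), IRX2 low in untreated replicate 3 (111.6 CPM) and MEIS1 high in that library (131 CPM). With vincristine in DLK KO, POU4F1 was low in replicate 3 (206 CPM), CUX2 low in replicate 3 (51.9 CPM), POU4F2 high in replicate 2 (86.8 CPM) and MEIS2 high in replicate 1 (4.27 CPM). In untreated LZK KO, POU3F2 was low in replicate 2 (109.6 CPM) and ONECUT1 low in replicate 4 (99.5 CPM). In WT, POU4F2 was low in vincristine replicate 4 (36.4 CPM), the library that stood apart, and LHX5 low in untreated replicate 1 (0.860 CPM).

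In the second experiment POU4F3 was low in Control gRNA vincristine replicate 5 (1.19 CPM) and CUX2 low in vincristine replicate 1 of that line (30.6 CPM). POU2F2 was high in ATF2 gRNA untreated replicate 1 (21.8 CPM) and in JUN gRNA vincristine replicate 5 (24.4 CPM), and ISL1 high in JUN gRNA untreated replicate 3 (3.32 CPM).

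The vincristine effect differed between knockdown and Control gRNA neurons in edgeR's interaction test, on the log2 scale, for DLX2 (-2.26), LHX1 (1.40), POU4F1 (1.00), LHX9 (0.98), IRX2 (0.96) and POU3F1 (0.95) with ATF2 gRNA. With JUN gRNA it differed for LHX1 (1.51), POU3F1 (1.01), LMX1B (0.98), IRX2 (0.94), POU4F1 (0.92) and LHX9 (0.75). Adjusted p-values are given with the comparisons above.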

How the results depend on the processing

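Of 241 calls on these genes with a group mean of at least 1 CPM, 201 held under every alternative run, 40 were lost under at least 1, and 0 reversed. Of the 241, 135 were in the first experiment. They include the comparisons between its lines, which are description only, so the tally is no support for those. Counts of calls moved by over 1.5 times in 4 comparisons, all vincristine effects. In DLK KO (1 call) the count was 2 with DESeq2 and 9 with only the groups compared, and 0 to 2 leaving out 1 library. In LZK KO (2) it was 1 with no filter, 0 with only the groups compared, 1 with the replicate block and 1 to 2 leaving out 1 library. In the double KO (0) it was 1 with only the groups compared, and in ATF2 gRNA (8) it was 5 with only the groups compared and 5 to 7 leaving out 1 library. The cause was not tested. The replicate block ended 5 calls (ONECUT2 in LZK KO, CUX1 in the untreated double KO, the difference of ONECUT3 in LZK KO, PRRXL1 in JUN gRNA and the difference of ONECUT2 with ATF2 gRNA) and no other. Correlations of same-numbered libraries ran from -0.415 to 0.193 over 43 pairs of groups, so the numbers do not pair the samples. Depth of the first experiment limits genes under 1 CPM, whose changes rest on few counts.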

Other observations

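Partners and other transcription factors of these genes were also counted. Of 18 LIM and TALE cofactors tested, 8 fell and 3 rose with vincristine in WT, and the same numbers in Control gRNA neurons. Over all tested genes 15.7% rose and 14.5% fell in WT, and 17.1% rose and 18.1% fell in Control gRNA, which holds beside each vincristine count here. LMO1, a LIM-only protein, fell by 1.18 (SE 0.11) and 1.41 (SE 0.17) on the log2 scale, and PKNOX2, a TALE factor, fell by 0.62 (SE 0.10) and 0.68 (SE 0.06). TGIF1, a TALE repressor, rose by 0.96 ± 0.31 and 2.19 ± 0.23, and LMO2 by 0.74 ± 0.13 and 0.58 ± 0.09. Of 22 neurogenic bHLH and partner factors, 18 were tested in WT, with 3 higher and 8 lower, and 19 in Control gRNA, with 4 higher and 12 lower. INSM1, a zinc-finger factor of newborn neurons, rose by 1.95 ± 0.18 in WT and 1.27 ± 0.05 in Control gRNA, and NEUROD4 by 1.22 ± 0.14 and 1.04 ± 0.06. BHLHE22, a bHLH repressor, fell by 1.09 (SE 0.17) and 1.05 (SE 0.09).

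Of the other homeobox genes, 61 were tested in WT, with 14 higher and 14 lower with vincristine, and 75 in Control gRNA, with 15 higher and 11 lower. In untreated ATF2 gRNA against Control gRNA, 29 of these 75 were higher and 7 lower, beside 19.7% and 20.2% of all genes. Of 39 HOX genes, 7 were tested in WT, where HOXB3 fell by 0.68 (SE 0.22), and 13 in Control gRNA, where 3 rose and 2 fell with vincristine. In untreated ATF2 gRNA neurons 8 of those 13 were higher and 1 lower than with Control gRNA. Calls are from edgeR's quasi-likelihood test at an adjusted p under 0.05.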
